A study of Mus musculus with 12 samples.

Results

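The hypothalamus of 3 male control mice (XY) was compared with that of 3 female control mice (XX), across genes carried on the autosomes, the chromosomes that both sexes hold in equal number. These 6 mice are part of a series of 12, in which 3 males and 3 females labelled small litter complete the groups. All 12 mice were of the inbred strain FVB/NJ-Jax and were studied at postnatal day 180, and total RNA of each hypothalamus was hybridised to 1 Illumina bead array. The labels number the mice of a group as biological replicates. Of 13547 features tested, 10527 were named genes on chromosomes 1 to 19, and these are the genes described here. They were read by 16481 of the 19704 probes that were detected, meaning that the detection p-value was under 0.01 on at least 3 of the 12 arrays.

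The hypothalamus controls reproduction, growth, feeding and water balance through neurons that release peptides into the blood or onto other neurons. Kisspeptin, the product of Kiss1, drives the neurons that release gonadotropin-releasing hormone. In rodents it is made in 2 hypothalamic regions, an anterior periventricular one, which holds more kisspeptin neurons in females than in males, and the arcuate nucleus, where the neurons also make neurokinin B from Tac2. Oestrogen and testosterone act on both populations, and adult sex differences in the tissue can follow from circulating hormones, from hormones around birth or from the sex chromosomes. The arrays read whole tissue, so fewer cells of a type and less RNA per cell cannot be told apart.

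Values are normalized log2 intensities, background-corrected and brought to the same quantiles on every array, so a difference of 1 is a doubling. Changes are control males minus control females, given with the standard error (SE) of a linear model (limma) fitted over all 12 arrays, with n = 3 mice per group. A gene passed where its adjusted p, corrected over all 13547 features by the Benjamini-Hochberg method, was under 0.05. Sex-linked genes were read first, as a check of the labels. Xist, the RNA that silences an X chromosome, was not detected in any control male and was at least 26.9-fold lower there (log2 change -5.50 ± 0.16). The Y-linked genes Kdm5d, Eif2s3y and Uty passed in the other direction, at least 3.17-fold, 1.9-fold and 2.06-fold higher in control males, since no control female had them detected. Each fold given as at least holds on the background-corrected scale used here. In other settings the log2 change was as small as -3.265 for Xist, 0.91 for Kdm5d, 0.58 for Eif2s3y and 0.46 for Uty. These sizes lie below the bounds. Before normalization the median bead signal was 106.7 to 108.1 on control male arrays and 121.1 to 127.0 on control female arrays, without overlap, while 40.6% to 41.3% of probes were detected in control males and 40.3% to 41.8% in control females. Sex and brightness therefore cannot be told apart, and each gene that passed was also read in the small-litter mice, since none of them had a second detected probe. Those mice are not in the control group means, but their arrays enter the normalization, the detection filter and the error estimate. Their sexes differed in brightness too, at 102.6 to 108.0 in males and 112.2 to 118.2 in females.

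Few autosomal genes passed between control males and control females. With 3 mice per group, a gene that did not pass is not shown to be equal between the sexes. Of the 10527 autosomal genes, 4 passed (0.038%), with 2 higher in males, Neurl2 and A230087F16Rik (0.019%), and 2 lower in males, Kiss1 and Tfb1m (0.019%). For comparison, 4 of 361 sex-linked genes passed (1.11%). By unadjusted p under 0.05 there were 1194 autosomal genes (11.3%), 620 higher in males (5.89%) and 574 lower (5.45%), and in 1865 genes (17.7%) the 3 male values and the 3 female values did not overlap. The median log2 change of all autosomal genes was 0.00, with 5330 higher and 5197 lower, and the median size was 0.11. Equal quantiles on every array hold that median near 0, so it is no finding about the sexes. It was 0.03 with median scaling and 0.04 with each array's median signal as a covariate. All 4 genes that passed lay among the 3509 dimmest autosomal genes by mean level, where 241 were higher and 221 lower in males at an unadjusted p under 0.05. With each array's median signal as a covariate, 0 autosomal genes passed by limma (526 at an unadjusted p under 0.05), and with the 6 control arrays alone in the fit 0 passed (1205). With the covariate each of the 4 genes kept its direction. With the control arrays alone the log2 changes are the same by construction, and only their error estimates differ. On the removal of 1 array, 2 to 5 genes passed. The number was 2 when the array left out was male control 1, male control 2, female control 2, male small litter 2 or female small litter 3.

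**Figure D1:**
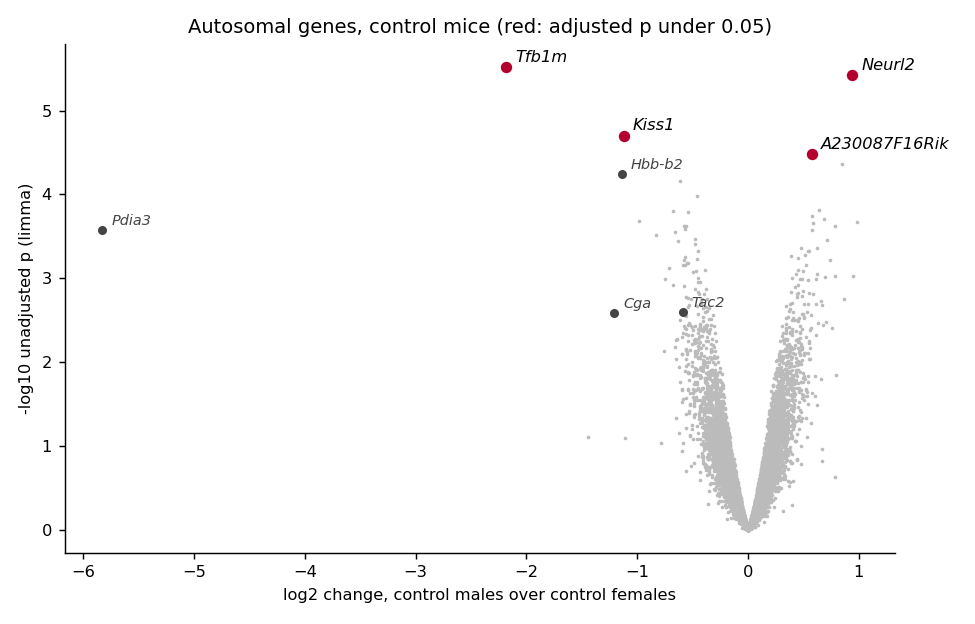
Each point is 1 of 10527 autosomal genes, with the log2 change of control males over control females on the horizontal axis and -log10 of the unadjusted limma p on the vertical axis. The 4 red points passed the threshold, and Pdia3, far to the left at -5.83, did not.

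Kiss1 was the hypothalamic hormone gene that passed. Its probe read 5.06, 5.19 and 5.63 in control males, against 6.17, 6.63 and 6.45 in control females. Every male lay below every female, and the probe was detected on 2 of the 3 male arrays and on all 3 female arrays. Kiss1 was 2.18-fold lower in males, a log2 change of -1.12 ± 0.17 (limma adjusted p = 0.0335). The means were 5.29 ± 0.30 in control males and 6.42 ± 0.23 in control females (SD, n = 3 each). In small-litter mice it read 5.33, 5.41 and 5.07 in males, against 6.13, 6.56 and 6.42 in females, again with no overlap. That log2 change was -1.10 ± 0.17 (limma adjusted p = 0.0209), and the 2 changes differed by -0.02 ± 0.24 (interaction, adjusted p = 0.983). Kiss1 had 1 detected probe, so no second probe could be set beside it. Its call in controls depended on single arrays: the adjusted p was 0.134 on leaving out male control 1, 0.15 for male control 2, 0.199 for female control 2 and 0.107 for female control 3. Leaving out an array of the small-litter mice, it was 0.0620 for male 1, 0.0571 for male 2 and 0.0700 for female 3. Without 1 control array the log2 change lay between -1.29 and -1.01, and leaving a small-litter array out of the fit did not alter it. The call was also lost without a detection filter (limma adjusted p = 0.0733). The size depended on the background correction. The log2 change was -0.44 in the authors' processed values and with no background correction, and -0.70 with an offset of 50, past the threshold in all 3 settings.

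The promoter windows of the genes that passed are shown because Kiss1 is regulated by oestrogen in rodents and the letters that oestrogen receptors bind can be looked for. RefSeq (build GRCm38.p6) holds a window for 3 of the 4 genes, from 250 bases before to 50 bases after a start of the gene, printed 5′ to 3′ on the gene's strand. That start is the 5′ end of the annotated gene for Neurl2, and lies 41 bases inside it for Tfb1m and 5325 bases inside it for Kiss1, so the Kiss1 window does not hold the outermost annotated start. Capitals mark the oestrogen response element half-site GGTCA or its reverse complement TGACC, searched on both strands.
Kiss1, chr1:133326962-133327261, strand +: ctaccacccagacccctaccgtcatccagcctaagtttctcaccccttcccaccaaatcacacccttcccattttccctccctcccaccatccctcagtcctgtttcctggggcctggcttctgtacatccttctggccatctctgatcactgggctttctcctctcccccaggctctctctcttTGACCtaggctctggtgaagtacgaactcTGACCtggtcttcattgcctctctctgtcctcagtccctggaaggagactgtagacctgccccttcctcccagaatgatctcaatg
Tfb1m, chr17:3557706-3558005, strand -: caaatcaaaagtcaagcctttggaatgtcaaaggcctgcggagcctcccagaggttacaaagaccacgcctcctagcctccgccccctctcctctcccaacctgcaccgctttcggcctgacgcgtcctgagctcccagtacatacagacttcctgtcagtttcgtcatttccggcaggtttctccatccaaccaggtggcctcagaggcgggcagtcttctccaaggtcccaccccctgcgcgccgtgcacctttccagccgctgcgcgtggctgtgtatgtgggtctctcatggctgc
Neurl2, chr2:164833547-164833846, strand -: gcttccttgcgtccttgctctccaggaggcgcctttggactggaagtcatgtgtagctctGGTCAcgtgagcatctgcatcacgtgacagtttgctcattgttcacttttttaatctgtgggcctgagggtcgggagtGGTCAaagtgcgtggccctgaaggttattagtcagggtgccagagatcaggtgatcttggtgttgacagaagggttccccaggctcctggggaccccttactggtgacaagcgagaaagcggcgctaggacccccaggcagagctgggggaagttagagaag
The Kiss1 and Neurl2 windows each hold 2 half-sites, and the Tfb1m window holds 0. Of 32851 RefSeq windows of the same length, 40.5% hold at least 1 half-site and 10.8% hold at least 2. None of the 3 windows holds the full element GGTCANNNTGACC, which 0.07% of all windows hold, or the androgen half-site AGAACA, which 19% hold. The Tfb1m window holds 1 GC box, GGGCGG, a motif present in 35.7% of windows. These letters describe the windows and were not tested for binding.

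**Figure D2:**
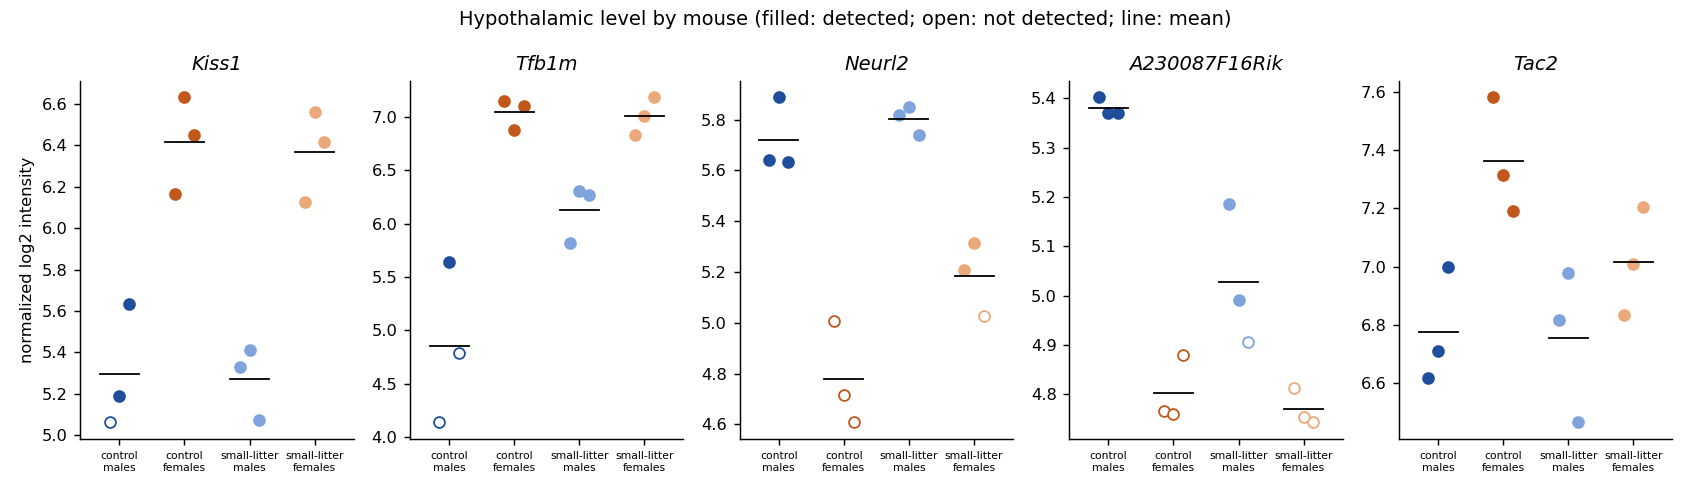
Normalized log2 intensity of the 4 genes that passed and of Tac2, with 1 point per mouse and a line at the group mean; control males stand left of control females and small-litter males left of small-litter females. For Kiss1 the control males lie between 5.06 and 5.63 and the control females between 6.17 and 6.63.

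Tac2, which encodes neurokinin B, was lower in every control male but did not pass. It read 6.61, 6.71 and 7.0 in control males, against 7.58, 7.32 and 7.19 in control females, a log2 change of -0.59 ± 0.16 (limma adjusted p = 0.197). A second, dimmer Tac2 probe was at -0.63 ± 0.19 in controls, with 1 male value above the lowest female value. With each array's median signal as a covariate the first probe was at 0.06. In small-litter mice the first probe was at -0.26 ± 0.16 and the second at -0.69 ± 0.19. Across 23 measured genes of kisspeptin, gonadotropin-releasing hormone and prolactin control, 10 were higher and 13 lower in control males, with a median log2 change of -0.07, against 0.00 for all autosomal genes. In small-litter mice 13 of the 23 were higher and 10 lower in males, with a median of 0.01. Kiss1 alone of the 23 passed in controls. The next by p after Tac2 was Nrp1, a semaphorin receptor that guides migrating neurons, at -0.42 ± 0.13. Kiss1r, the kisspeptin receptor, was at 0.10, and Tacr3, the neurokinin B receptor, at -0.03. Gnrh1 itself had no named probe and was not analysed here.

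Tfb1m had the largest change of the 4 genes. It encodes the enzyme that methylates the small ribosomal RNA of mitochondria. The probe read 4.14, 5.64 and 4.79 in control males, against 7.14, 6.88 and 7.10 in control females. All males lay below all females, and 1 of the 3 males had the probe detected. The log2 change was -2.18 ± 0.28 (limma adjusted p = 0.00682), a 4.54-fold lower level in males as read. The undetected values of male control 1 and male control 3 lie below the lowest values of detected probes (4.97 to 5.14), so this size is not fully measured. On male control 1 the probe read close to the 4.13 of Pdia3 and Maged1 on that array, described below. In small-litter mice it read 5.81, 6.31 and 6.27 in males, against 6.83, 7.01 and 7.18 in females, also without overlap. That change was -0.88 ± 0.28 and did not pass (limma adjusted p = 0.0961). The difference between the changes, -1.31 ± 0.39, had an unadjusted p of 0.00562 and an adjusted p of 0.413. Tfb1m also had 1 detected probe, and its call was kept whichever of the 12 arrays was left out, with a log2 change between -2.58 and -1.83. The size was smaller with less background correction, at -0.93 in the authors' processed values, -0.98 with no background correction and -1.36 with an offset of 50, and the call was kept in all 3.

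Neurl2 encodes a substrate adaptor of a ubiquitin ligase, known from mouse muscle. It read 5.64, 5.89 and 5.63 in control males, against 5.01, 4.72 and 4.61 in control females. All 3 males had the probe detected and none of the 3 females did. Neurl2 was therefore at least 1.61-fold higher in males (log2 change 0.94 ± 0.12, limma adjusted p = 0.00731). In small-litter mice it read 5.82, 5.85 and 5.74 in males, against 5.21, 5.31 and 5.03 in females, a change of 0.62 ± 0.12 that passed (limma adjusted p = 0.0376). The adjusted p in controls was 0.0582 without female control 2 and 0.132 without both arrays with the highest meningeal markers. In the authors' processed values the log2 change was 0.29 (limma adjusted p = 0.0945), a smaller size than the bound, which holds on the background-corrected scale. It was also 0.29 with no background correction (limma adjusted p = 0.0923) and 0.50 with an offset of 50, where it passed.

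A230087F16Rik is annotated as a long non-coding RNA gene on chromosome 12. It read 5.40, 5.37 and 5.37 in control males, against 4.77, 4.76 and 4.88 in control females. The groups did not overlap, and the probe was detected in all 3 control males and in none of the control females. It was at least 1.28-fold higher in males (log2 change 0.58 ± 0.09), with a limma adjusted p that rounds to 0.05 and lies just under the threshold. In small-litter mice it read 5.19, 4.99 and 4.91 in males, against 4.81, 4.75 and 4.74 in females, a change of 0.26 ± 0.09 that did not pass (limma adjusted p = 0.132). No small-litter female had it detected either, so the probe entered the test through male arrays alone. Its detection split is therefore not separate support for the difference. Of 25 alternative settings 5 kept its call, and its log2 change was 0.17 in the authors' processed values and with no background correction. That is a smaller size than the bound, which holds on the background-corrected scale. Leaving out any array but those of small-litter males 1 and 3 ended it, with an adjusted p of up to 0.22.

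The next genes by p did not pass, and were taken in each direction until 12 were named. Klhl40, which stabilises thin filament proteins in muscle, read 5.30, 5.43 and 5.12 in control males, against 4.30, 4.47 and 4.54 in control females. It was detected in all 3 males and no female, so it was at least 1.19-fold higher in males (log2 change 0.85 ± 0.14, limma adjusted p = 0.0582). No small-litter female had Klhl40 detected either, so it entered the test through male arrays alone. Abca8b, a lipid transporter of the ABC family, read 6.51, 6.44 and 6.15 in control males, against 5.54, 5.42 and 5.19 in control females, a change of 0.98 ± 0.19. Its groups did not overlap, and in small-litter mice Abca8b was at 0.86 ± 0.19 and passed (limma adjusted p = 0.0416). Ankrd39, an ankyrin repeat gene, was among the brighter ones, at 8.11, 8.19 and 8.15 in control males, against 7.66, 7.69 and 7.34 in control females. Its change was 0.59 ± 0.12 in controls and 0.47 ± 0.12 in small-litter mice, where its adjusted p was 0.051. The other genes on the higher side were Cpsf4, a subunit of the complex that cleaves and polyadenylates messenger RNA, at 0.64 ± 0.12, the long non-coding RNA gene 2810029C07Rik at 0.58 ± 0.11, Mob1b, an activator of Hippo pathway kinases, at 0.69 ± 0.13, Frmd8 at 0.79 ± 0.16, the cadherin gene Cdh18 at 0.57 ± 0.12, the neuronal adhesion gene Cntn4 at 0.71 ± 0.15 and Lpxn at 0.48 ± 0.10. No control female had Cpsf4, Mob1b or Frmd8 detected, so their changes are against a level not above background and their folds are bounds, of at least 1.1 for Cpsf4, 1.26 for Mob1b and 1.48 for Frmd8. In other settings the log2 change was as small as 0.20 for Mob1b and 0.24 for Frmd8, below these bounds. No small-litter female had Cpsf4 detected either, so it entered the test through male arrays alone. Cdh18 and Lpxn were each detected on 1 of the 3 control female arrays, so their female levels lie near background.

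On the lower side, Ntrk3, the receptor for neurotrophin-3, read 7.38, 7.30 and 7.43 in control males, against 7.97, 8.02 and 7.96 in control females. The gap between the groups was wider than the spread within either, and the log2 change was -0.61 ± 0.11 (limma adjusted p = 0.0724). In small-litter mice Ntrk3 was at -0.60 ± 0.11 and passed (limma adjusted p = 0.0329). Ndufb10, a subunit of respiratory complex I, read 10.12, 10.13 and 10.21 in control males, against 10.63, 10.56 and 10.65 in control females. Every male was lower, by -0.46 ± 0.08 (limma adjusted p = 0.0895), and in small-litter mice Ndufb10 was at -0.54 ± 0.08 and passed (limma adjusted p = 0.0209). Med1, the Mediator subunit through which nuclear receptors contact the transcription machinery, read 7.78, 7.95 and 7.67 in control males, against 8.19, 8.51 and 8.41 in control females. Its groups did not overlap, and its change was -0.57 ± 0.11 in controls and -0.78 ± 0.11 in small-litter mice, where it passed (limma adjusted p = 0.0209). The remaining genes were the antiviral ubiquitin ligase gene Trim56 at -0.68 ± 0.13, Hcfc2 at -0.54 ± 0.10, the signalling ligand gene Wnt2 at -0.99 ± 0.19, the zinc finger gene Zfp329 at -0.58 ± 0.12 and the cadherin gene Cdh20 at -0.56 ± 0.11. Zfp329 was not detected in any control male, so its fold is a bound, at least 1.21-fold lower in males. In other settings its log2 change was as small as -0.17, below that bound in size. Wnt2 was detected on 1 and Trim56 on 2 of the 3 control male arrays, so their male levels lie near background.

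Hbb-b2, a beta-globin gene of red blood cells, was the lower gene closest to the threshold. It read 7.92, 8.21 and 8.43 in control males, against 9.75, 8.98 and 9.25 in control females, with no overlap and a log2 change of -1.14 ± 0.19 (limma adjusted p = 0.0643). All 5 measured red blood cell transcripts were lower in control males, with a median of -0.38, and Hbb-bt was next at -0.55 ± 0.19. Their mean deviation from the average of all arrays was -0.57 to 0.13 in control males and 0.06 to 0.54 in control females, and its part in the Hbb-b2 value was not tested. The globin genes are near copies of each other, so their probes may not be fully separate.

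Pdia3, a disulfide isomerase of the endoplasmic reticulum and normally among the brightest genes here, showed the largest change of the genes named. It read 4.13, 4.13 and 10.27 in control males, against 11.96, 11.86 and 12.19 in control females. In male control 1 and male control 2 the probe was at background, and in all 6 small-litter mice it read between 10.51 and 12.21. The log2 change was -5.83 ± 1.17 (limma adjusted p = 0.095), and without male control 3 the adjusted p was 8.72e-08. A probe of the X-linked gene Maged1 behaved alike on 1 array, at 4.13 in male control 1 and at 12.55 and 12.83 in the other control males. Among 18 endoplasmic reticulum chaperone genes, Pdia3 included, 6 were higher and 12 lower in control males, with a median of -0.08 and none past the threshold. In small-litter males 11 of them were higher and 7 lower, with a median of 0.03.

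Second probes of a gene followed the first only in part. Of the 10527 genes, 4055 had at least 2 detected probes. Among them, the second brightest probe had the same direction in controls in 57% of genes, and it had an unadjusted p under 0.05 in that direction in 9.22%. Among the 429 genes whose brightest probe had an unadjusted p under 0.05, the second probe had the same direction in 64.6% and an unadjusted p under 0.05 in that direction in 15.2%. In those 429 genes the median size was 0.33 on the first probe, and the second probe had a median of 0.08 in the first probe's direction. None of the 4 genes that passed had a second detected probe.

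Of the 24 genes named by p, 5 had a second probe, and in 3 of the 5 it pointed the same way. None of these 5 second probes had an unadjusted p under 0.05 in that direction. Ntrk3 was at -0.61 on its brightest probe, and its other probes were at -0.16 and 0.03. Med1 was at -0.57 on the brightest of 4 probes, with 0.01, -0.11 and -0.22 on the others. The second probe of Ndufb10 was at -0.11, that of Abca8b at 0.13 and that of Zfp329 at 0.05, so the values of these 5 genes rest on 1 probe each. Probes of a gene can read different transcript forms, and their positions were not examined.

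In 65 of the 4055 genes with at least 2 detected probes, both of the brightest probes had an unadjusted p under 0.05 in controls in the same direction. In 9 of the 65, both probes did so in small-litter mice as well, and these 9 were named after their values were seen. Of all 4055 genes, 209 had both probes at an unadjusted limma p under 0.05 in 1 direction in small-litter mice, whatever their control values. None of the 9 named genes passed in controls. Hsd17b11, an enzyme of steroid and lipid metabolism on lipid droplets, read 9.20, 9.37 and 9.33 in control males, against 8.89, 8.83 and 9.06 in control females. Its second probe read 8.64, 8.48 and 8.26 in control males, against 8.02, 7.81 and 8.13 in control females. The groups did not overlap on either probe, with log2 changes of 0.38 ± 0.10 and 0.47 ± 0.13, and 0.16 ± 0.19 on another, dimmer probe. Zkscan14, a zinc finger gene, was higher in control males on both probes, by 0.40 ± 0.11 and 0.57 ± 0.12. Dph1, which acts in the synthesis of diphthamide on elongation factor 2, was higher on all 3 of its probes, by 0.35 ± 0.10, 0.26 ± 0.10 and 0.30 ± 0.12. Mbtps1, the protease that starts the activation of sterol regulatory proteins, was at 0.46 ± 0.13 and 0.27 ± 0.10, with 0.04 ± 0.13 on a dimmer one. Tmem223 was at 0.27 ± 0.10 and 0.25 ± 0.10, Bcl2l1, an inhibitor of apoptosis, at 0.41 ± 0.18 and 0.51 ± 0.15, and Dnm1, the dynamin of synaptic vesicle recycling, at 0.46 ± 0.19 and 0.45 ± 0.19. A dimmer probe was at -0.06 ± 0.15 for Bcl2l1 and at 0.09 ± 0.14 for Dnm1. Fam171a1 was the lower gene of the 9, at -0.36 ± 0.14 and -0.31 ± 0.14. Slc6a15, a neutral amino acid transporter of neurons, was at 0.27 ± 0.12 and 0.44 ± 0.14 on its 2 brighter probes and at -0.66 ± 0.17 on a dimmer one. That dimmer probe was not detected in any control male, so its fold is a bound, at least 1.17-fold lower in males.

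**Figure D3:**
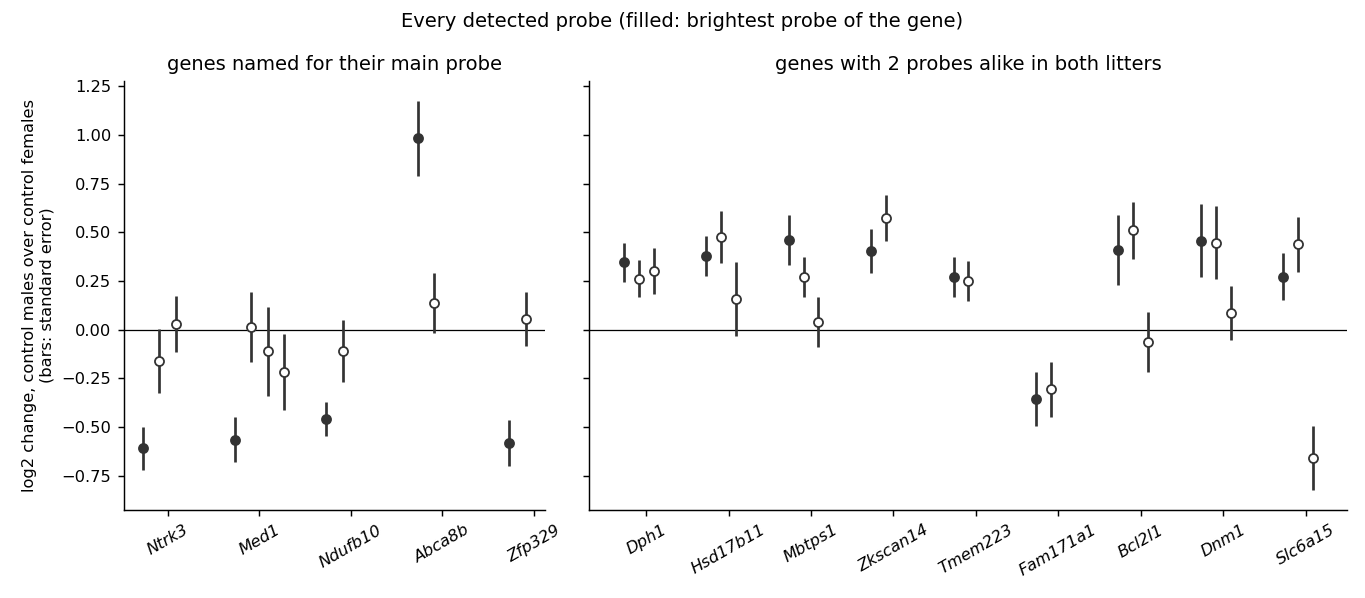
Log2 change of control males over control females, with SE, for every detected probe of 5 genes named by p (left) and of the 9 genes with 2 probes alike in both litter sizes (right); filled points are the brightest probe. On the left Ntrk3 lies at -0.61 on its brightest probe and at -0.16 and 0.03 on the others, and on the right the Dph1 probes lie at 0.35, 0.26 and 0.30.

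The sexes were also compared in the small-litter mice, to set the control changes beside those of other mice. Both comparisons share 1 normalization, 1 detection filter and 1 error estimate per gene, so their p-values are not independent. There 233 autosomal genes passed (2.21%), 107 higher (1.02%) and 126 lower (1.2%) in males, and 2478 had an unadjusted p under 0.05 (23.5%). Whether the change between males and females differed between control and small-litter mice was tested for each gene, and 0 autosomal genes passed (0%), with a smallest adjusted p of 0.404 by limma and 1040 genes (9.88%) at an unadjusted p under 0.05. Single arrays moved both counts. Without male small litter 1, 1310 genes passed in small-litter mice and 150 in the test of the difference. With male 2, male 3 or female 2 of the small-litter mice left out, 0 genes passed in small-litter mice (1669, 1621 and 1797 at an unadjusted p under 0.05, in that order), and without any other array except male control 3 the count was 3 to 155. Without male control 3, 1 gene passed in the test of the difference. A pass in 1 litter group and not in the other is therefore not shown to be a difference between them. Of all autosomal genes, 60.2% had the same direction in both litter groups. Of the 1194 genes with an unadjusted p under 0.05 in controls, 76.1% had the same direction in small-litter mice, 359 (30.1%) with an unadjusted p under 0.05 and 71 past the adjusted threshold. The litter groups share no mice, but the sexes differed in brightness in both.

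All 4 genes that passed in controls had the same direction in small-litter mice without overlap of the sexes, and Kiss1 and Neurl2 also passed there. Of all 10527 autosomal genes, 508 had the same direction without overlap in both litter groups. Among the 1194 genes with an unadjusted limma p under 0.05 in controls, 319 did. Of the 24 genes named by p, 18 had the same direction, 7 of the 12 higher and 11 of the 12 lower ones, and 6 passed. Several on both sides had a much smaller or an opposite change in small-litter mice. Frmd8 was at 0.79 in controls and 0.03 in small-litter mice, Cpsf4 at 0.64 and -0.04, Cntn4 at 0.71 and -0.11, and Lpxn at 0.48 and -0.02. The gene 2810029C07Rik was at 0.58 in controls and -0.04 in small-litter mice. Among the lower genes, Hcfc2 was at -0.54 in controls and -0.0035 in small-litter mice, and Wnt2 at -0.99 and -0.17. Mob1b was at 0.69 in controls and -0.25 in small-litter mice, and Zfp329 at -0.58 in controls and 0.25 in small-litter mice. In each of these comparisons the lower group had the probe detected on none of its 3 arrays, so both genes lie near background and these differences are not measured on both sides. The unadjusted interaction p of these 2 genes was 0.00026 for Mob1b and 0.00021 for Zfp329, and the adjusted p was 0.404 for both.

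**Figure D4:**
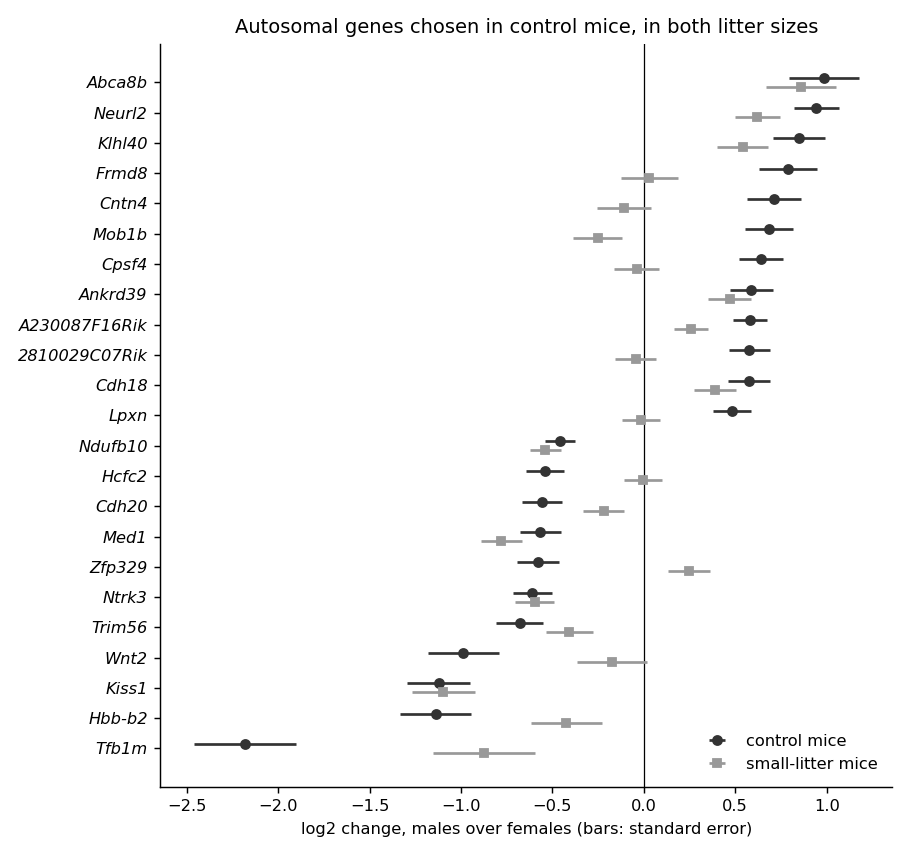
Log2 change of males over females, with SE, in control mice (circles) and in small-litter mice (squares) for the genes named by p, leaving out Pdia3, which would set the scale. Kiss1 lies at -1.12 in controls and -1.10 in small-litter mice, and Mob1b at 0.69 and -0.25.

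Genes of hypothalamic hormones and their receptors were compared one by one, and Kiss1 was the only one of those measured that passed. Esr1, the oestrogen receptor alpha gene, read 5.74, 5.86 and 6.15 in control males, against 5.97, 6.39 and 6.30 in control females, with overlap and a log2 change of -0.30 ± 0.18. Pgr, the progesterone receptor gene that oestrogen induces, was at -0.23 ± 0.14, and Greb1, another oestrogen-induced gene, at 0.08 ± 0.20. Ecel1 and Moxd1, markers of sexually dimorphic preoptic neurons in mice, were at -0.13 ± 0.19 and 0.22 ± 0.18. Among the releasing factors, Ghrh was at -0.22 ± 0.13, Sst at -0.23 ± 0.15 and Trh at 0.09 ± 0.26. Th, the enzyme of dopamine synthesis, was at 0.18 ± 0.22, and Gal, a peptide of several hypothalamic neuron types, at -0.26 ± 0.21. For these genes the groups overlapped. With each array's median signal as a covariate Pgr was at 0.45, Ghrh at 0.19 and Th at -0.17. Without female control 2, Greb1 was at -0.05 and Ecel1 at 0.06; without female control 3, Trh was at -0.14; without male control 2, Th was at -0.01; and without male control 3, Trh was at -0.15 and Greb1 at -0.14.

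Vasopressin and oxytocin levels varied widely between mice. Avp read 12.06, 11.70 and 13.45 in control males, against 11.97, 12.22 and 11.01 in control females, a log2 change of 0.67 ± 0.39. Oxt read 11.33, 10.51 and 12.30 in control males, against 11.66, 11.98 and 10.35 in control females, a change of 0.05 ± 0.43. Male control 3 had the highest and female control 3 the lowest value of both genes among control mice. Npy, the appetite peptide, was also highest in male control 3, at 10.93, against 9.30 and 9.23 in the other control males and 9.22 to 9.77 in control females, a change of 0.41 ± 0.35. Without male control 3, Avp was at 0.15, Npy at -0.14 and Oxt at -0.41, and without female control 3 Oxt was at -0.44. On the removal of single arrays Avp lay between 0.15 and 1.02. Pomc, the melanocortin precursor, was at -0.56 ± 0.27, and at -0.23 without male control 3.

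Cga, the shared alpha subunit of pituitary glycoprotein hormones, was lower in all control males. It read 7.51, 7.63 and 7.10 in control males, against 9.01, 8.39 and 8.47 in control females, a log2 change of -1.21 ± 0.32 that did not pass (limma adjusted p = 0.197). In small-litter mice it read 8.08, 7.68 and 8.02 in males, against 7.67, 8.41 and 9.36 in females, with overlap and a change of -0.55 ± 0.32. Cga marks the pituitary and the pars tuberalis at its stalk. Of 11 such genes 5 were higher and 6 lower in control males, with a median of -0.09. Tshb was at 0.53 ± 0.20, detected in 2 control males and in no control female, a bound of at least 1.2-fold. No small-litter female had Tshb detected either, so it entered the test through male arrays alone. Prl, the prolactin gene of the pituitary, read 4.59, 6.44 and 6.55 in control males, against 4.44, 7.78 and 5.27 in control females, a change of 0.03 ± 0.93 that lay between -0.67 and 1.0 on the removal of single arrays. The list's mean deviation from the average of all arrays was -0.16 to 0.06 in control males and -0.03 to 0.27 in control females, and the part of pituitary tissue in the Cga value was not tested.

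**Figure D5:**
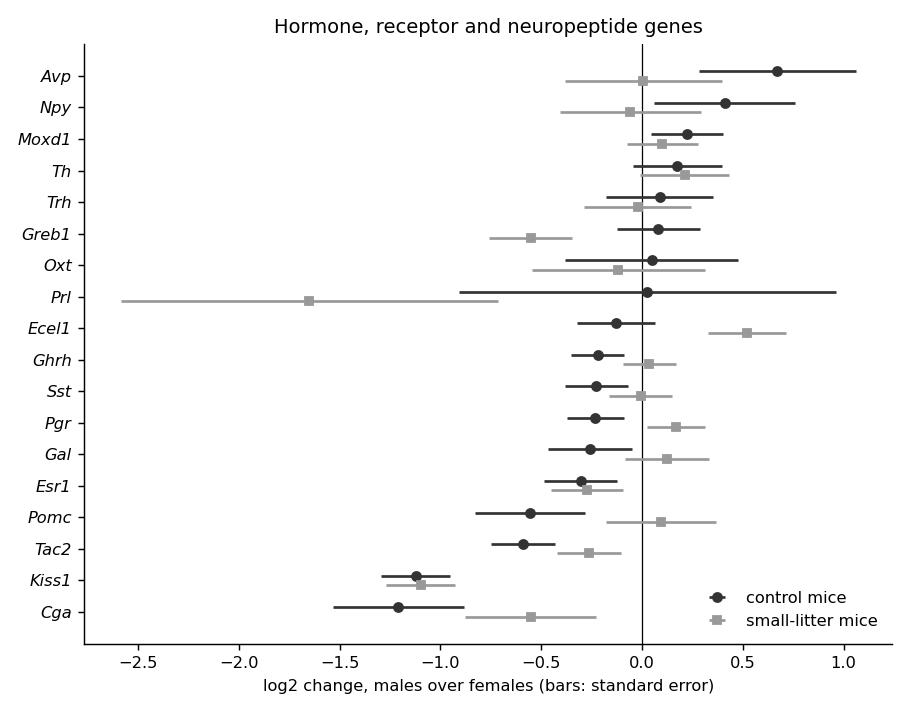
Log2 change of males over females, with SE, in control mice (circles) and small-litter mice (squares) for hormone, receptor and neuropeptide genes. Kiss1 lies at -1.12 in controls and -1.10 in small-litter mice, while Cga lies at -1.21 in controls and -0.55 in small-litter mice.

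Across lists of genes by role, Kiss1 was the sole member that passed in controls, and the list medians ranged from -0.38 to 0.13, against 0.00 for all autosomal genes. Of 31 genes of sexually dimorphic hypothalamic and limbic neurons, 11 were higher and 20 lower in males, with a median of -0.13. In small-litter mice 16 of the 31 were higher and 15 lower in males, with a median of 0.01. Nts of that list, the neurotensin gene, read 7.57, 7.28 and 7.49 in control males, against 8.02, 7.87 and 7.99 in control females, without overlap and at -0.51 ± 0.13 (limma adjusted p = 0.175). Of 12 sex steroid receptor, synthesis and cofactor genes, 6 were higher and 6 lower, with a median of 0.02. The growth hormone axis list had 4 higher and 16 lower of 20, with a median of -0.10, and Igfbp3, a carrier of insulin-like growth factors, at -0.40 ± 0.15. In small-litter mice that list had 10 higher and 10 lower, with a median of 0.02. The 31 feeding peptide and receptor genes had a median of -0.06 and the 15 neurosecretory genes one of 0.04. On the removal of single arrays the median lay between -0.10 and 0.02 for the sex steroid list and between -0.15 and 0.05 for the neurosecretory list. The 66 respiratory chain genes had a median of 0.01, with 35 higher and 31 lower, so the Ndufb10 value was not shared by the list.

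Immediate early genes, which neurons switch on when active, were lower in control males for 16 of 19, with a median of -0.24 and none past the threshold. Arc, a synaptic plasticity gene, read 6.88, 6.92 and 6.39 in control males, against 7.51, 7.25 and 7.28 in control females, without overlap and at -0.62 ± 0.17 (limma adjusted p = 0.212). In small-litter mice Arc was at 0.25, and the list median was -0.08. Egr3 was at -1.11 ± 0.59 in controls, a value set by female control 2, which read 9.57 against 6.32 to 6.88 in the other 5 control mice; without it the change was -0.14. Without female control 3 and male control 2 together, the list median was -0.03. Glucocorticoid response genes were higher in control males for 17 of 25, with a median of 0.07 in controls and -0.23 in small-litter mice and no member past the threshold in controls. Their mean deviation from the average of all arrays was 0.41 in male control 3, against -0.01 and 0.09 in the other control males and -0.16 to 0.12 in control females. The control median was -0.02 without male control 3 and 0.26 without female control 2. Map3k6 of that list was at 0.61 ± 0.16 in controls, detected in all 3 control males and in no control female, a bound of at least 1.18-fold, and Gpd1 at 0.47 ± 0.13.

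Of 21 autosomal relatives and partners of sex-linked genes, 9 were higher and 12 lower in control males, with a median of -0.04 and none past the threshold. Kdm5b, the autosomal relative of the histone demethylase genes Kdm5c and Kdm5d, read 7.79, 7.62 and 7.69 in control males, against 8.17, 8.21 and 8.08 in control females. The groups did not overlap, and its log2 change was -0.46 ± 0.10 (limma adjusted p = 0.115). In small-litter mice Kdm5b was at -0.09. Hnrnpk, an RNA-binding protein gene of the same list, read 9.84, 10.06 and 10.08 in control males, against 9.63, 9.55 and 9.47 in control females, without overlap and at 0.44 ± 0.11 (limma adjusted p = 0.173). Its other probes were at -0.07 and -0.08. Of 28 interferon and class I antigen genes, 11 were higher and 17 lower, with a median of -0.07. H2-K1 of that list read 6.49, 6.54 and 6.41 in control males, against 7.22, 6.91 and 6.92 in control females, at -0.54 ± 0.18 in controls and -0.62 ± 0.18 in small-litter mice, neither past the threshold.

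Markers of cell types and neighbouring regions were compared in the same way, and no marker passed in controls. Hypothalamic subregions had 4 higher and 11 lower of 15 markers in control males (median -0.17), with Nkx2-1, a transcription factor that specifies the hypothalamus, at -0.40 ± 0.13 and Tbx3, of arcuate neurons, at -0.54 ± 0.19. In small-litter males 11 of these markers were higher and 4 lower, with a median of 0.03. Oligodendrocyte precursor markers had 2 higher and 8 lower of 10 (median -0.22), and microglia markers 2 higher and 12 lower of 14 (median -0.15, and -0.21 to 0.02 on the removal of single arrays). Male control 3 was the lowest control array for both, at -0.27 for precursors and -0.40 for microglia. The small-litter medians were 0.02 for precursors and -0.02 for microglia. Choroid plexus markers had a median of -0.17 in controls and -0.14 in small-litter mice, and Ttr among them ranged from 7.22 to 9.38 in control males and from 7.95 to 11.54 in control females. Meningeal fibroblast markers stood apart on male control 2, at 1.19, and female control 3, at 1.13, against -0.15 or lower on the other 4 control arrays. Without those 2 arrays, 1 autosomal gene passed, Tfb1m, and Kiss1 had an adjusted p of 0.28. The medians were 0.03 for astrocytes, -0.04 for oligodendrocytes, 0.05 for thalamus and -0.07 for cortex and hippocampus.

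By chromosome, the share of genes with an unadjusted p under 0.05 in controls was lowest on chromosome 13, at 7.83% of 383 genes, and highest on chromosome 12, at 15.3% of 380 genes, against 11.3% of all autosomal genes. The median log2 change of a chromosome lay between -0.03 and 0.02. The 4 genes that passed lay on chromosomes 1, 2, 12 and 17.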

How the data were processed

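Per the labels, total RNA from each of 12 mouse hypothalami was labelled with biotin and read on 1 Illumina array. The deposited values are, per array and for 45281 probes, the mean bead intensity, neither background-subtracted nor normalized, and a detection p-value. A second deposited set holds the authors' own processed values on a log2 scale, for 20791 probes. The submitters' processing notes name lumi, with no version given in the sources used here. The correlation of these values with the log2 intensity of the matching array was 0.99978 or above; each array's median was 7.84, and they served as an alternative.

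Normalization used the neqc function (limma version 3.58.1, R version 4.3.3, data.table version 1.17.8), which corrects background by normexp from the detection p-values, adds an offset of 16, equalises quantiles and takes log2. Probes were kept where the detection p was under 0.01 in 3 or more of the 12 arrays, and the brightest probe stood for a gene. The platform's gene annotation gave 1 symbol for 18003 probes, several for 6 and none for 2782. Of these probes 17983 matched the RefSeq genes (GRCm38.p6) by gene identifier, which gave the chromosome. This left 10527 autosomal, 361 sex-linked, 8 mitochondrial, 16 unplaced and 2635 unnamed features.

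The 4 group means were estimated from the 12 arrays together (lmFit, eBayes, 8 residual and 4.84 prior degrees of freedom). Tests were 2-sided, and p-values were adjusted over all 13547 features by the Benjamini-Hochberg method, with a threshold of 0.05. Where no array of the dimmer group detected a gene, its level there is only an upper bound. In the fold printed as "at least N-fold", each dim array counts with its own value or with the lowest value among detected probes (4.97 to 5.14), whichever is higher. Such folds hold on the background-corrected scale, and with less correction a change can be smaller than its bound. The fit was tested on simulated data. The number of arrays limits the precision.

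Named genes were those that passed, filled to 12 in each direction by smallest p, up to 2 further members of each of 33 lists by smallest p, and fixed hormone and sex-linked genes. Kiss1r, Tacr3, Maged1 and 9 genes with 2 probes alike were added after their values were seen. The members, lists and tests were chosen with earlier results of these data known. Cyp19a1, Cckar, Gnrh1, Gh and Prlr had no named probe and were not analysed here. The alternatives changed the values (the authors' own, an offset of 50, median scaling, or none of the background correction), the probes (no detection filter, detection on all 12 arrays, every probe, or the mean over a gene's probes), or the fit. Changes to the fit were the compared arrays alone, trend with robust, array weights, median signal as a covariate, a replicate block, and leaving out 1 array or both arrays with the highest meningeal markers.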

Additional observations from a re-analysis of the deposited data

Results flagged for a closer look

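One feature outside the named genes differed between the sexes in control mice. The probe ILMN_2899599, which the gene table does not list, read 10.23, 9.91 and 9.90 in control males, against 6.81, 7.08 and 6.98 in control females, a log2 change of 3.06 ± 0.16 (SE, n = 3 per group, limma adjusted p = 3.79e-07). The groups did not overlap, and in small-litter mice the change was 2.98. It was 1 of 2635 unnamed features to pass in controls (0.038%). Its chromosome was not analysed here, so it is not counted among autosomal genes.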

How the results depend on the processing

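In controls 4 autosomal genes passed, 233 in small-litter mice and 0 in the test of the difference. These counts were 8 and 702 with the authors' values and likewise with no background correction, 7 and 616 with an offset of 50, and 17 and 767 with trend and robust. They were 0 and 433 with detection on all 12 arrays, 0 and 1 with only the arrays compared, 0 and 0 with the median signal as a covariate, and 1 and 12 without both arrays with the highest meningeal markers. Detection on all 12 arrays takes the 4 genes out before the test, since each went undetected on some array. That setting is therefore not among their 25 alternatives. The control counts of 0 had 1079, 1205 and 526 genes at an unadjusted limma p under 0.05, and the small-litter count of 0 had 516. Of the 8 genes with the authors' values 1 was higher and 7 lower. In small-litter mice 45 passed with median scaling, 27 higher and 18 lower, 50 with no detection filter, 16 higher and 34 lower, and 2052 with array weights. With the replicate block 5 passed in controls and 76 in small-litter mice. Same-numbered males and females correlated at 0.07, -0.13 and -0.12 in controls and at -0.04, 0.02 and 0.01 in small-litter mice. The labels state no pairing and none was assumed, but with so few mice these correlations cannot exclude one. On the removal of 1 array the counts ranged from 2 to 5, from 0 to 1310 and from 0 to 150. The calls of Tfb1m, Neurl2, Kiss1 and A230087F16Rik held in 23, 19, 14 and 5 of 25 alternatives. With the median signal as a covariate some genes changed direction: Th at -0.17, Ghrh at 0.19, Pgr at 0.45, Tac2 at 0.058, Nts at 0.031, Gpd1 at -0.0015, C1qa at 0.17, Aldh1a2 at -0.90, Foxj1 at -0.15 and Bcl2l1 at -0.47. So did Prl, at -0.081 with the authors' values and with no background correction, -0.067 with an offset of 50 and -0.54 without both meningeal arrays, and Oxt, at -0.062 with array weights and -0.0053 without both meningeal arrays. Leaving out 1 array, the log2 changes ranged from -0.67 to 1.0 for Prl, -0.44 to 0.49 for Oxt, -0.15 to 0.35 for Trh, -0.013 to 0.37 for Th, -0.14 to 0.24 for Greb1, -0.29 to 0.061 for Ecel1 and -0.14 to 0.70 for Npy. The cause of these changes was not tested. All 4 genes that passed are dim, which limits how far their changes can be measured.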
